A study of Homo sapiens with 6 samples.

Results

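The nuclear-encoded subunits of respiratory complexes II to V, together with cytochrome c, were followed in macrophages with the lactate exporter MCT4 knocked down and in their controls. Members were found by gene symbol in the deposited table. The symbols SDHA to SDHD, CYC1, CYCS, the UQCR, COX and ATP5 subunit symbols and ATP5IF1 were searched, and 62 of 35009 rows matched. Of these, 16 were pseudogenes and were left out, so 46 genes remained: 4 of complex II, 9 of complex III, 1 for cytochrome c, 13 of complex IV and 19 of complex V. COX4I2 and COX6A2 were not analysed here. The study sequenced polyadenylated RNA of THP-1 cells, a human monocytic leukaemia cell line, which had been turned into macrophages and given oxidised low-density lipoprotein (ox-LDL), the lipoprotein that loads macrophages of the artery wall with lipid. The 6 libraries form 2 groups of 3, both of ox-LDL-treated THP-1 macrophages: siMCT4 libraries, described as MCT4 deficient, and control libraries. The study's title concerns reparative genes and histone lactylation after MCT4 inhibition. Whether a non-targeting siRNA was given to the controls is not stated in the labels, so loss of MCT4 and exposure to an siRNA cannot be told apart. Nor is it stated that the 3 siMCT4 or the 3 control libraries come from separate cultures, and every p-value therefore measures only the spread between these samples, which may be technical.

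Electrons from succinate enter the inner mitochondrial membrane through complex II, which is succinate dehydrogenase and is the sole complex here whose subunits are all encoded in the nucleus. They pass by ubiquinone to complex III, by cytochrome c to complex IV, which reduces oxygen, and complexes III and IV move protons across the membrane. Complex V, the ATP synthase, lets the protons return and makes ATP. In macrophages the balance between this chain and glycolysis, whose lactate leaves the cell through MCT4, is known to differ between inflammatory and alternatively activated states.

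Total counts ran from 61880619 to 69103124 in siMCT4 libraries and from 65010219 to 69181938 in control libraries. The targeted gene SLC16A3, which encodes MCT4, stood at 10.8, 11.05 and 13.4 CPM in siMCT4 libraries 1, 2 and 3, against 115, 101 and 108 CPM in control libraries 1, 2 and 3, where CPM is counts per 1000000 counts of the library after TMM scaling. Its log2 change was -3.20 (SE 0.10, adjusted p = 1.12e-06). Every adjusted p comes from the quasi-likelihood F-test in edgeR, corrected by Benjamini and Hochberg's method over all tested genes. A two-sided exact permutation test on SLC16A3 reached p = 0.1, and no design of 3 against 3 can go lower. Of 8 macrophage markers 6 fell (CD36, CSF1R, CD14, MSR1, ITGAM and LYZ) and CD68 and SPI1 were not called, with summed levels of 3346 to 3459 CPM in siMCT4 and 4640 to 4744 CPM in control libraries. The epithelial markers EPCAM, KRT19 and CDH1 summed to 0.0564 to 0.423 CPM in siMCT4 libraries and were at 0 in all controls. The fibroblast markers COL1A1, COL3A1 and PDGFRB summed to 5.51 to 7.06 CPM in siMCT4 and 5.63 to 7.13 CPM in control libraries, with none called. Of the endothelial markers KDR stayed under 1 CPM, and PECAM1, which monocytes and macrophages also express, fell to 341 ± 5.496 CPM in siMCT4, against 536 ± 7.04 CPM in control libraries (SD, n = 3; log2 change -0.65, adjusted p = 1.37e-05). CDH5 was not used here, and the part of these markers in the results was not tested. Counts of mitochondrially encoded genes made up 3.19% to 3.35% of siMCT4 and 4.52% to 4.85% of control libraries. In RNA from bulk cultures, fewer cells of a kind and less RNA per cell cannot be told apart. Among siMCT4 libraries, library 3 stood apart in genes rich in G and C: over 1434 genes of at least 60% GC the log2 ratios over the control mean had medians of -0.54, -0.58 and -0.18 for siMCT4 libraries 1, 2 and 3, and between -0.01 and 0.02 in the controls. Results that rest on it are given with and without it.

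Transcripts for complexes III, IV and V and for cytochrome c were lower in siMCT4 than in control macrophages in part of each complex, and no subunit was higher. Of 46 members 44 had enough counts to be tested. A member was called at an adjusted p under 0.05 over all 19944 genes tested. In siMCT4 libraries 19 of the 44 fell, 0 rose and 25 did not pass, against 20.8% of all tested genes called lower and 20.6% called higher. At an unadjusted p under 0.05 the count was 28 lower and 0 higher, against 25.0% and 24.4% of all tested genes, and DESeq2 called 26 lower, against 21.6% of all genes it tested, and 0 higher. The 3 siMCT4 values lay wholly below the 3 control values for 30 of the 44, against 27.8% of all tested genes, and wholly above them for 0, against 27.2%. The median log2 change of the 44 was -0.39, beside -0.01 for all tested genes, and all 44 log2 changes were below 0. With an offset for GC content and length 40 of them were below 0, and on log2(FPKM + 1) and log2(TPM + 1) 42 and 33. The TPM scaling alone moved the median of all tested genes by over 0.1, to 0.12, and the members' median stood 0.31 below it there. On TPM 11 members fell, against 14.5% of all tested genes, with the calls of UQCRC1, CYC1, UQCRQ, COX4I1, COX6C, COX7C, ATP5F1E, ATP5PB and ATP5ME lost there. On that scale 68.4% of all calls were higher, against 49.8% with TMM. With siMCT4 replicate 3 left out 19 members fell, against 23.1% of all tested genes, and with control replicate 3 left out 14 fell, against 15.3%. With both left out 19 fell, against 23.2%, of which 17 were among the 19 of all libraries, the median was -0.21 and 36 of 44 log2 changes were below 0. With siMCT4 library 3 alone set against the controls 30 fell, against 16.2%, and the median was -0.61.

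The complexes differed in their medians and counts. The median log2 change was -0.09 in complex II, -0.39 in complex III, -0.58 in complex IV and -0.31 in complex V, and cytochrome c stood at -0.63. Called members numbered 0 of 4, 6 of 9, 6 of 12 and 6 of 18 in complexes II, III, IV and V, beside 20.8% of all tested genes. The complex II median turned to 0.02 on FPKM and to 0.11 on TPM, while those of complexes III, IV and V remained below 0 under every scaling. The differences between complexes are a description of these genes and were not tested.

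**Figure D1:**
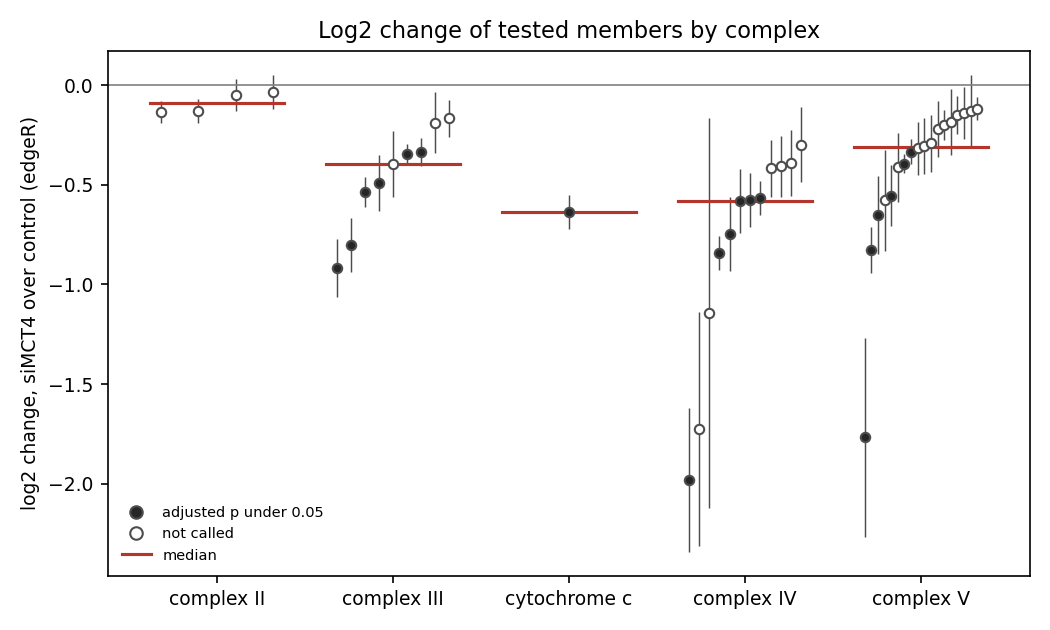
Log2 change of siMCT4 over control (vertical axis, edgeR with TMM scaling) for each of the 44 tested members, grouped by complex along the horizontal axis, with filled points for members called lower, open points for members not called, thin vertical lines for the SE and horizontal bars for the median of each complex. All points lie below 0, where on FPKM 42 and on TPM 33 would, the complex II median lies nearest to it at -0.09, and COX5B, ATP5F1D and COX8A lie lowest at -1.98, -1.77 and -1.72.

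In complex II no member was called in either direction. SDHA, the flavoprotein that oxidises succinate, had a log2 change of -0.13 (SE 0.06, adjusted p = 0.0934), with 135, 133 and 125 CPM in siMCT4 libraries and 137, 143 and 151 CPM in control libraries 1, 2 and 3. SDHB, the iron-sulphur subunit that passes the electrons on, had a log2 change of -0.13 (SE 0.06, adjusted p = 0.1395). For both genes the siMCT4 values lay below the control values with no overlap, by a narrow margin. SDHC and SDHD anchor the enzyme in the membrane and help bind ubiquinone. SDHC, the most abundant complex II member per length, had 106, 109 and 91.9 CPM in siMCT4 and 98.7, 109 and 110.1 CPM in control libraries, with overlapping groups and a log2 change of -0.05 (SE 0.08, adjusted p = 0.662). SDHD overlapped too, at 64.5, 67.4 and 58.4 CPM in siMCT4 and 58.2, 66.7 and 70.00 CPM in control libraries, with a log2 change of -0.03 (SE 0.09). On log2(FPKM + 1) SDHC and SDHD changed sign to 0.06 and 0.07, and on log2(TPM + 1) all 4 lay above 0, between 0.07 and 0.17, about the 0.12 of all genes. SDHA was called lower in 1 of 18 alternatives, with an offset for GC content and length (-0.15, adjusted p = 0.0318, with 0.0318 to 0.753 over the alternatives). Pseudogenes of SDHA held 30.2% as many counts as SDHA itself, so its counts depend on how reads of near-identical copies were assigned.

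The promoters of SDHA and SDHD are shown as examples from the complex with no called member, beside those of COX5B, COX8A, COX5A and UQCR11 further on. The 150 bases before the RefSeq start (GRCh38.p14) are printed 5′ to 3′ on the gene's strand, at chr5:218170-218319, plus strand, and chr11:112086723-112086872, plus strand. Capitals mark matches on either strand to GCGCANGCG, the core of the site of NRF1 (nuclear respiratory factor 1), and to CCGGAAGT, a site of ETS factors such as GABP.
SDHA: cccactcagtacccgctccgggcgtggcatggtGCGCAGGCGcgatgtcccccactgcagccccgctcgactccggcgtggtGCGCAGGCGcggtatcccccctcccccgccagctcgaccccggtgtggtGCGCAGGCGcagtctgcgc
SDHD: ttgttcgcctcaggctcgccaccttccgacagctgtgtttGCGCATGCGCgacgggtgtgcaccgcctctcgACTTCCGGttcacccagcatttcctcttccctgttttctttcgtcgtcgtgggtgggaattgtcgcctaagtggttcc
These 150 bases held 3 NRF1 matches before SDHA, and 1 NRF1 and 1 ETS match before SDHD.

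In complex III 6 of 9 subunits fell: the core proteins UQCRC1 and UQCRC2, cytochrome c1 and 3 small subunits. UQCR11 (GRCh38 chromosome 19, 1597169 to 1605462, minus strand), a small accessory subunit, fell most. It had 13.6, 12.4 and 16.4 CPM in siMCT4 libraries 1, 2 and 3, against 25.8, 22.99 and 31.2 CPM in control libraries 1, 2 and 3. The groups did not overlap, and the highest siMCT4 value, in library 3, remained below the lowest control value. Its log2 change was -0.92 (SE 0.14, adjusted p = 0.00193). UQCRB, which lies near the ubiquinone site, had 78.2, 76.1 and 65.1 CPM in siMCT4 and 120.4, 108 and 154 CPM in control libraries, and fell by 0.80 log2 units (SE 0.14, adjusted p = 0.00271). Here siMCT4 library 3 was the lowest and control library 3 the highest. UQCRC2, a core protein of the matrix arm, had 147, 146 and 123 CPM in siMCT4 and 193, 206 and 204 CPM in control libraries, with a log2 change of -0.54 (SE 0.07, adjusted p = 0.00102). The calls of these 3 genes held in all 18 alternatives.

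Its partner core protein UQCRC1, the most abundant complex III member per length, had 162, 159.6 and 172 CPM in siMCT4 and 199, 212 and 217 CPM in control libraries. The groups were narrow and did not overlap, and the log2 change was -0.35 (SE 0.05, adjusted p = 0.00145). On TPM, and with the GC and length offset and the block together, it did not pass (adjusted p = 0.0623 and 0.0606, with 6.08e-07 to 0.0623 over its alternatives). CYC1, a gene of 61.8% GC, encodes the haem protein cytochrome c1 that hands electrons to cytochrome c. It fell by 0.33 log2 units (SE 0.07, adjusted p = 0.00718), and turned to 0.05 with an offset for GC content and length (adjusted p = 0.714, with 0.000480 to 0.779 over the alternatives). UQCRQ, another small subunit, fell by 0.49 (SE 0.14, adjusted p = 0.0274), a call lost in 12 of 18 alternatives, among them every fit without 1 library except that without control replicate 1 (adjusted p from 0.0529 to 0.080 there, and from 0.00502 to 0.132 over all alternatives). UQCRH, the hinge protein that meets cytochrome c, stood at -0.39 (adjusted p = 0.0959). The Rieske iron-sulphur protein UQCRFS1 stood at -0.17 (adjusted p = 0.194) and the small subunit UQCR10 at -0.19 (adjusted p = 0.3701), and neither was called.

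CYCS (GRCh38 chromosome 7, 25118656 to 25125260, minus strand) encodes cytochrome c, the soluble carrier between complexes III and IV that also sets off caspases when it leaves mitochondria. It had 97.8, 103 and 82.4 CPM in siMCT4 libraries 1, 2 and 3, against 141, 144 and 154 CPM in control libraries 1, 2 and 3, and fell by 0.63 log2 units (SE 0.09, adjusted p = 8.92e-04). The highest siMCT4 value was well under the lowest control value, and the call held in all 18 alternatives.

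In complex IV 6 of 12 tested subunits fell, among them the member with the largest change of all 44. That gene, COX5B (GRCh38 chromosome 2, 97646062 to 97648383, plus strand), encodes a zinc-binding subunit on the matrix side. It had 844, 976 and 2376 counts in siMCT4 libraries 1, 2 and 3, against 4633, 4829 and 6038 counts in control libraries 1, 2 and 3, which is 13.2, 14.04 and 33.5 CPM in siMCT4 and 69.1, 75.6 and 95.6 CPM in control libraries. The groups were far apart, but siMCT4 library 3 stood well above siMCT4 libraries 1 and 2. COX5B was 3.95-fold lower in siMCT4 macrophages (log2 change -1.98, SE 0.36, adjusted p = 0.003704). The log2 change was -2.53 without siMCT4 replicate 3 and -1.24 with that library alone against the controls, and the call held in all 18 alternatives. COX5A, its neighbour in the enzyme's matrix-facing part, had 17.4, 18.9 and 18.9 CPM in siMCT4 and 34.4, 29.7 and 35.1 CPM in control libraries, with a log2 change of -0.84 (SE 0.09, adjusted p = 2.32e-04). Its 3 siMCT4 values lay close together, well under every control, and the call held in all 18 alternatives.

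COX8A (GRCh38 chromosome 11, 63974620 to 63976543, plus strand), the subunit VIII of most tissues and the most abundant complex IV member per length, had a change almost as large as that of COX5B but did not pass. It stood at 5.104, 4.37 and 21.8 CPM in siMCT4 libraries and 32.2, 29.1 and 42.1 CPM in control libraries 1, 2 and 3. The groups did not overlap, yet siMCT4 library 3 lay nearer to the controls than to siMCT4 libraries 1 and 2. The log2 change was -1.72 (SE 0.59, adjusted p = 0.0503), and -2.84 without siMCT4 replicate 3 (adjusted p = 8.26e-06). It passed as lower in 10 of 18 alternatives, with adjusted p from 4.95e-06 to 0.147. COX8A is 58.6% GC. With an offset for GC content and length its log2 change was -1.39 (adjusted p = 0.0903), and -1.79 (adjusted p = 0.0230) with the replicate block added.

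The other called subunits of complex IV moved less. COX6C fell by 0.75 log2 units (SE 0.19, adjusted p = 0.0154), COX7C by 0.58 (SE 0.16, adjusted p = 0.0228) and COX7A2L by 0.56 (SE 0.09, adjusted p = 0.00155). COX6C was not called on TPM (adjusted p = 0.0538) or with the replicate block (adjusted p = 0.0569), and its adjusted p began at 0.000154 among its alternatives. COX7C lost its call in 7 of 18 alternatives, among them both FPKM settings, TPM and the replicate block with or without the GC and length offset. It was also not called without siMCT4 replicate 1 (adjusted p = 0.0550) or without control replicate 3 (adjusted p = 0.0686), with adjusted p from 0.000959 to 0.0949 over its alternatives. COX4I1, the form of subunit IV that most tissues use, had 109, 111 and 82.5 CPM in siMCT4 and 136, 143 and 172 CPM in control libraries, with a log2 change of -0.58 (SE 0.13, adjusted p = 0.0113). That call was lost on TPM (adjusted p = 0.0589, with 6.67e-05 to 0.0589 over its alternatives). COX6C overlaps VPS13B on the opposite strand, which had 41897 counts over the 6 libraries against 10899 for COX6C, and COX4I1 overlaps EMC8. The counting strand is not given in the sources used here, so reads of such pairs may not be told apart.

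In the COX7A and COX6B families of complex IV, the forms used by most tissues, COX7A2 and COX6B1, held nearly all the counts of their pairs COX7A2 and COX7A1, and COX6B1 and COX6B2. COX7A2, the widely used form of subunit VIIa, had 61.1, 67.3 and 41.9 CPM in siMCT4 and 60.96, 64.8 and 83.7 CPM in control libraries, with overlapping groups (log2 change -0.30, adjusted p = 0.248). COX7A1, the form of heart and skeletal muscle, had 0, 4 and 0 counts in siMCT4 and 3, 0 and 0 counts in control libraries, too few to test. The related COX7A2L, which joins complexes III and IV into larger assemblies, had 63.9, 64.9 and 53.2 CPM in siMCT4 and 85.8, 88.4 and 94.6 CPM in control libraries, without overlap. COX6B1, which faces the intermembrane space, had 43.3, 41.2 and 34.2 CPM in siMCT4 and 46.2, 43.6 and 65.8 CPM in control libraries, without overlap but with control library 3 far above the other controls (log2 change -0.39, adjusted p = 0.0989). Its testis form COX6B2 had 0, 11 and 9 counts in siMCT4 and 21, 15 and 6 counts in control libraries, too low and scattered for its log2 change of -1.15 (SE 0.98, adjusted p = 0.391) to be read. COX6A1 had 36.7, 37.04 and 27.5 CPM in siMCT4 and 41.8, 38.95 and 53.6 CPM in control libraries, with a log2 change of -0.41 (adjusted p = 0.0718). COX7B stood just outside the threshold at -0.42 (adjusted p = 0.0517), and it passed in 3 of 18 alternatives, with adjusted p from 0.0136 to 0.269.

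**Figure D2:**
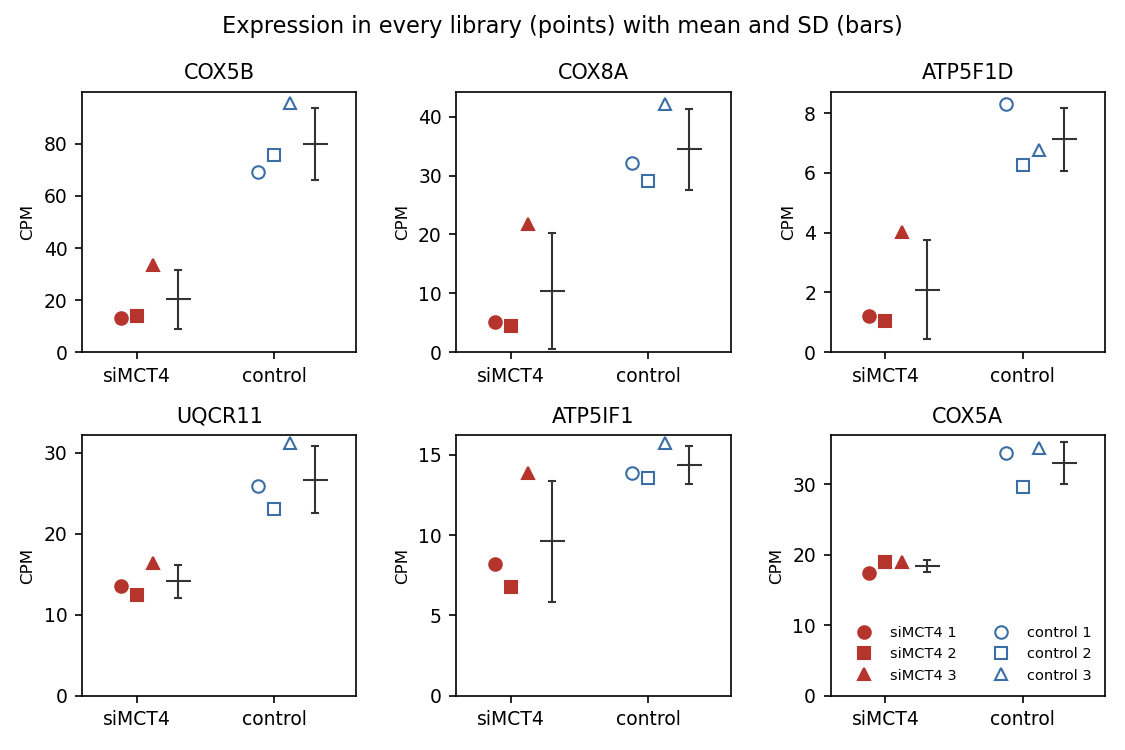
CPM (counts per 1000000 with TMM scaling, vertical axes starting at 0) of 6 members in each library, with siMCT4 libraries left of control libraries and bars for the mean with the SD of 3 libraries. COX5B, COX8A, ATP5F1D and ATP5IF1 show siMCT4 library 3 well above siMCT4 libraries 1 and 2, as in 13.2, 14.04 and 33.5 CPM for COX5B, and the siMCT4 points lie under all control points in every panel but that of ATP5IF1.

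The promoters of UQCR11, COX5A, COX5B and COX8A, genes of complexes III and IV chosen after their values were seen, are printed in the same way as those of SDHA and SDHD, to show which of the motifs stand before genes with large differences. COX8A was not called, and COX6B2, with its few counts, is not shown. They lie at chr2:97645912-97646061, plus strand, chr11:63974470-63974619, plus strand, chr15:74938074-74938223, minus strand, and chr19:1605463-1605612, minus strand.
COX5B: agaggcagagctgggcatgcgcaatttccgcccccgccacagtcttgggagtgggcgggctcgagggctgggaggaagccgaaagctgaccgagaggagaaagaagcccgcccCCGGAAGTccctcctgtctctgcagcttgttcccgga
COX8A: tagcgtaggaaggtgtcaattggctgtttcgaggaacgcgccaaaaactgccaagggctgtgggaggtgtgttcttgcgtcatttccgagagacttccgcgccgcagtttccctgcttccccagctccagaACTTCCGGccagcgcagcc
COX5A: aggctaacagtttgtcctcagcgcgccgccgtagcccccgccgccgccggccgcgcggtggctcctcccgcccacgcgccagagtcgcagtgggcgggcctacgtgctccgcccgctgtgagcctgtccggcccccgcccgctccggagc
UQCR11: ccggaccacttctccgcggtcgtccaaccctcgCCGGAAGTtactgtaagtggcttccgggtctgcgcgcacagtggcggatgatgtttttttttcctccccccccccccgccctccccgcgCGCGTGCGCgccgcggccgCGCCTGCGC
COX5B and COX8A each held 1 ETS match in these 150 bases, UQCR11 held 1 ETS and 2 NRF1 matches, and COX5A held neither. The match before COX8A and that before SDHD read on the opposite strand, as ACTTCCGG. Windows of 300 bases (250 before to 50 after the start) were searched on both strands for all 35116 RefSeq entries, of which 42 belonged to 36 members. Entries for ATP5F1B, ATP5F1D, ATP5MC3, ATP5MF, ATP5MGL, COX6C, COX7A1, CYC1, SDHC and UQCRB are not used here. GCGCANGCG occurred in 13 of 42 member windows (31.0%) and 7.52% of all windows, and CCGGAAGT in 10 of 42 (23.8%) and 4.14% of all. AAGATGGCG, a site of YY1, occurred in 4 of 42 (9.52%) and 1.75% of all, and GGGCGG, a site of SP factors, in 25 of 42 (59.5%) and 45.0% of all. None of these strings of letters holds another, and overlapping matches of the same motif were counted once. The shares were not adjusted for the GC content of the windows. Some members supplied several windows, and the 4 windows with a YY1 match belong to 3 members. NRF1 matches stood in 4 of 17 windows of called members and in 9 of 25 of members not called, and ETS matches in 3 of 17 and 7 of 25, counts too small to read a difference from. A match is a run of letters, not evidence that a factor binds there.

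In complex V 6 of 18 tested members fell, and they were spread over the catalytic head, the rotor ring, the side stalk and the small membrane subunits. Of 5 genes of the F1 head and central stalk 3 fell. ATP5F1B (GRCh38 chromosome 12, 56638175 to 56645984, minus strand), the catalytic beta subunit and the most abundant member of all per length, had 373, 376 and 387 CPM in siMCT4 libraries 1, 2 and 3, against 469.9, 511 and 513 CPM in control libraries 1, 2 and 3. Both groups were tight and well separated, with a log2 change of -0.39 (SE 0.05, adjusted p = 5.22e-04), and the call held in all 18 alternatives. ATP5F1D, the delta subunit of the central stalk, was scarce, with 78, 72 and 284 counts in siMCT4 and 557, 401 and 428 counts in control libraries. It was 3.40-fold lower (log2 change -1.77, SE 0.50, adjusted p = 0.0255), with siMCT4 library 3 far above the other siMCT4 libraries and still under every control. The gene is 68.5% GC, and an offset for GC content and length brought the log2 change to -0.81 (adjusted p = 0.0102). Leaving out any library but siMCT4 replicate 3 ended the call (adjusted p from 0.0616 to 0.0848), and over all its alternatives adjusted p ran from 2.99e-05 to 0.0848. ATP5F1E, the epsilon subunit, fell by 0.55 log2 units (SE 0.15, adjusted p = 0.0228), a call lost in 6 of 18 alternatives. Among them were both FPKM settings, TPM and the replicate block. The call was also lost without control replicate 3 (adjusted p = 0.05002, just above the threshold) or siMCT4 replicate 2 (adjusted p = 0.0686). Over all its alternatives the adjusted p ran from 0.00157 to 0.111. The alpha subunit ATP5F1A, which alternates with beta in the head, had a log2 change of -0.20 (SE 0.08, adjusted p = 0.07101), and the gamma subunit ATP5F1C, the rotating shaft, had -0.12 (SE 0.06, adjusted p = 0.152).

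The 3 ATP5MC genes encode the same mature c subunit of the rotor ring with different import signals, and 1 of the 3 was called. ATP5MC2 had 36.8, 36.5 and 29.1 CPM in siMCT4 and 56.5, 56.7 and 68.5 CPM in control libraries, and fell by 0.83 log2 units (SE 0.12, adjusted p = 0.00111), a call that held in all 18 alternatives. ATP5MC3, the most abundant of the 3 per length, had 101, 107 and 75.1 CPM in siMCT4 and 98.7, 108 and 123 CPM in control libraries, with overlapping groups (log2 change -0.22, adjusted p = 0.251). ATP5MC1 overlapped as well, with 22.3, 24.3 and 17.8 CPM in siMCT4 and 21.1, 23.9 and 25.9 CPM in control libraries (log2 change -0.14, adjusted p = 0.439). The difference between the 3 changes was not tested.

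In the peripheral stalk, which holds the head still, ATP5PB fell, with 218, 218 and 189 CPM in siMCT4 and 259.7, 259 and 268 CPM in control libraries (log2 change -0.33, SE 0.06, adjusted p = 0.00441). It was not called on TPM (adjusted p = 0.118, with 8.84e-05 to 0.118 over its alternatives). The other stalk genes ATP5PD, ATP5PO and ATP5PF had log2 changes of -0.32, -0.29 and -0.15 and were not called. Of 5 tested small subunits of the membrane part, ATP5ME alone fell, by 0.65 log2 units (SE 0.20, adjusted p = 0.0327). That call was lost in 12 of 18 alternatives, among them every fit without 1 library except the fit without control replicate 1 (adjusted p from 0.0594 to 0.104 there, and from 0.00593 to 0.168 over all alternatives). ATP5ME overlaps MYL5 on the opposite strand. ATP5MG, ATP5MJ, ATP5MK and ATP5MF lay between -0.41 and -0.13 and were not called. ATP5MGL had 0, 0 and 5 counts in siMCT4 and 0, 0 and 0 counts in control libraries and was not tested. ATP5IF1, the inhibitor that blocks the synthase from running backwards, had 8.22, 6.76 and 13.9 CPM in siMCT4 and 13.9, 13.5 and 15.7 CPM in control libraries. Its siMCT4 library 3 lay among the controls while libraries 1 and 2 lay below them, and the log2 change of -0.58 (SE 0.25) had an adjusted p of 0.108. Without siMCT4 replicate 3 it was -0.92 (adjusted p = 0.000722), and adjusted p ran from 0.000722 to 0.903 over its alternatives. The complex V count depends on single libraries: 3 of 18 fell without control replicate 3 or without siMCT4 replicate 2, a share near the 15.3% and 16.1% of all tested genes in those fits, and 13 fell with siMCT4 library 3 alone against the controls, beside 16.2% of all genes.

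Per length, subunits of the same enzyme stood at very different levels. On the FPKM scale (fragments per kilobase of gene and 1000000 fragments, as deposited) the mean over 6 libraries was highest for ATP5F1B, with 163 ± 2.89 in siMCT4 and 199 ± 10.1 in control libraries (SD, n = 3). ATP5PB came next, with 64.1 ± 5.23 FPKM in siMCT4 and 74.8 ± 0.901 FPKM in control libraries. UQCRC1 was the third, and below it SDHC, ATP5F1A, ATP5F1C and UQCRH did not differ from their neighbours in this order beyond the spread of their libraries. ATP5F1D was the lowest of the members with a mean above 1 FPKM, with 0.876 ± 0.711 FPKM in siMCT4 and 2.81 ± 0.411 FPKM in control libraries, and COX6B2, COX7A1 and ATP5MGL lay under 0.1 FPKM. The length behind the deposited FPKM is not stated. Back-calculated from counts, FPKM and library totals, it came to 13473 bases for UQCRB and 9309 for SDHA, against median transcript lengths of 645 and 2009.5. Such a length is known only up to a scaling factor, and for UQCRB it exceeds the whole locus (chromosome 8, 96222947 to 96235546). The order by FPKM is therefore approximate. Summed over its members, complex IV had 188, 192 and 197 FPKM in siMCT4 libraries 1, 2 and 3, against 290.3, 289.9 and 377 FPKM in control libraries 1, 2 and 3. This sum rests heavily on COX5B, with means of 13.7 FPKM in siMCT4 and 50.5 FPKM in control libraries, and on COX8A, with 20.3 and 62.4 FPKM. COX8A was not called, and the length back-calculated in the same way from its FPKM is only 529 bases. In siMCT4 library 3 the complex IV sum was the highest of the siMCT4 libraries, while its complex IV median log2 ratio was the lowest, at -0.74. The corresponding sums for complex II were 116, 118 and 102 FPKM in siMCT4 and 102, 113 and 114 FPKM in control libraries, with overlap.

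**Figure D3:**
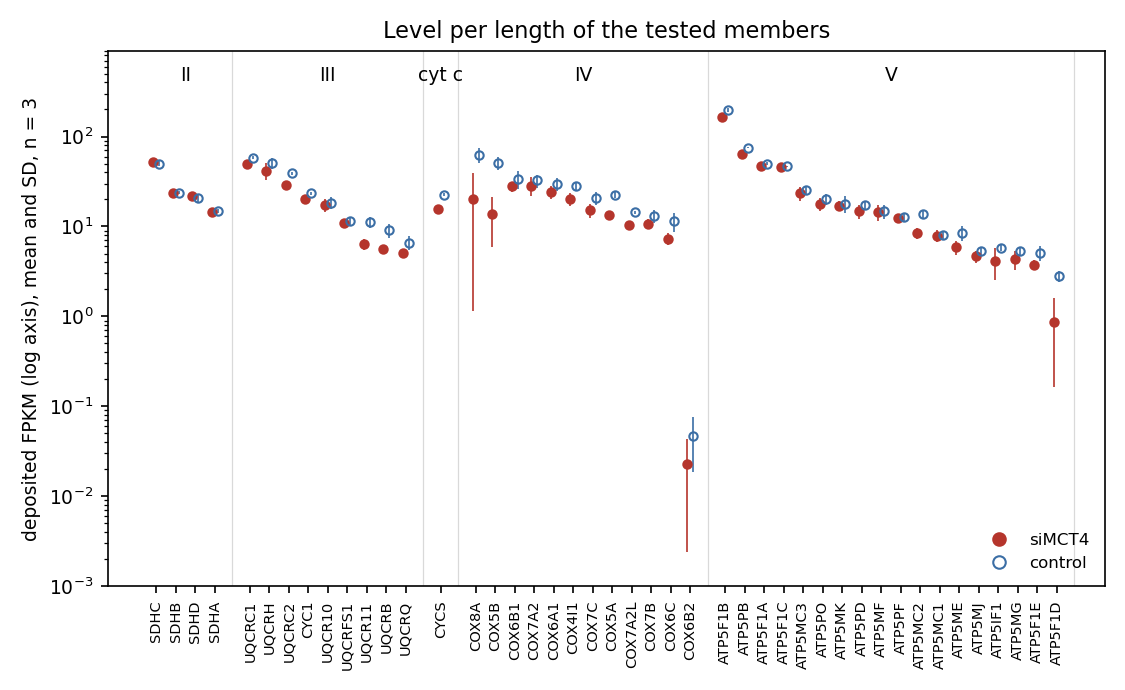
Mean deposited FPKM of the 44 tested members (log vertical axis, with the SD of 3 libraries) in siMCT4 (filled) and control libraries (open), ordered by level within each complex. Levels run from ATP5F1B, at 163 FPKM in siMCT4 and 199 FPKM in control libraries, to COX6B2 under 0.1 FPKM, and the pairs of points of complex II nearly coincide.

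The members did not move alike in every library. Taken over the tested members, the log2 ratio to the control mean had medians of -0.30, -0.27 and -0.59 in siMCT4 libraries 1, 2 and 3, and -0.09, -0.07 and 0.18 in control libraries 1, 2 and 3. Thus each siMCT4 median lay below each control median, with siMCT4 library 3 lowest and control library 3 highest. By gene, siMCT4 library 3 was the lowest siMCT4 library for 34 of 44 members and control library 3 the highest control for 40 of 44. For 8 members siMCT4 library 3 was instead the highest siMCT4 library: UQCR11, UQCRC1, COX5A, COX5B, COX8A, ATP5F1B, ATP5F1D and ATP5IF1. The members made up 0.329%, 0.333% and 0.289% of counts in siMCT4 libraries 1, 2 and 3, against 0.364%, 0.3796% and 0.4199% in control libraries 1, 2 and 3. The libraries numbered 3 held the same places in the medians of each of complexes II to V. There siMCT4 library 3 was lowest, at -0.21, -0.59, -0.74 and -0.51, and control library 3 highest, at 0.07, 0.24, 0.27 and 0.17. In complex II the groups overlapped: the control library 1 median, -0.085, lay below those of siMCT4 libraries 1 and 2, at -0.033 and -0.030. No label ties the libraries numbered 3 to a batch, and what sets them apart was not tested.

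**Figure D4:**
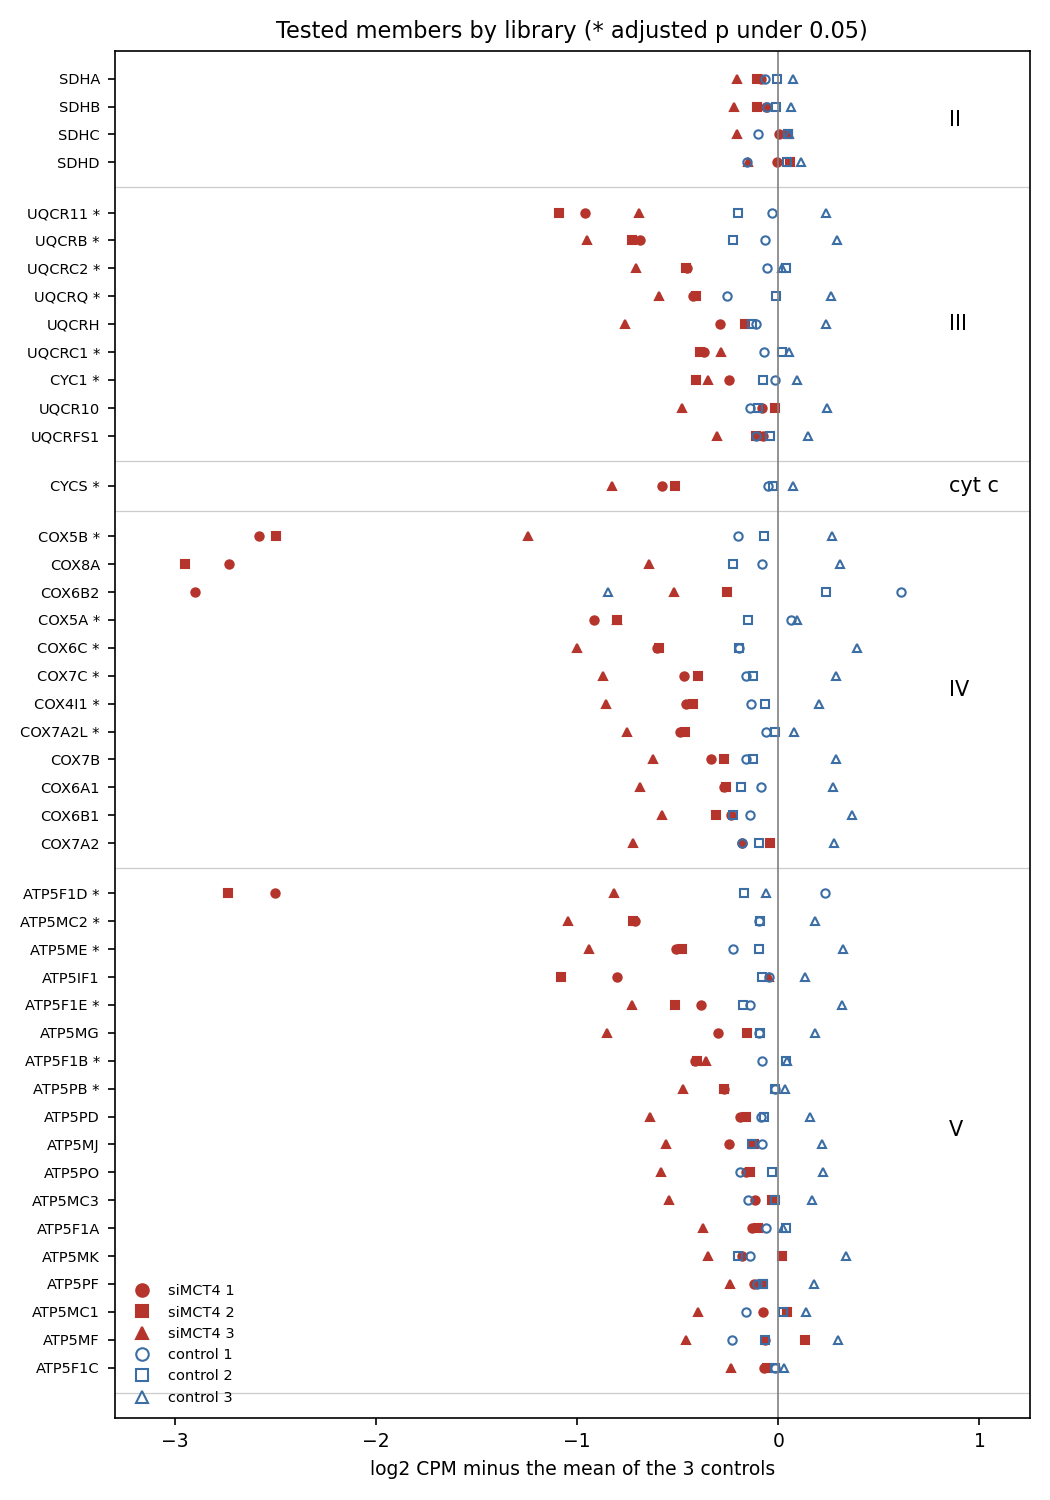
Log2 ratio of each tested member to its mean in the control libraries, 1 row per member and 1 point per library (siMCT4 filled, control open), with an asterisk beside members called lower. The siMCT4 points lie mostly left of 0 with library 3 farthest left for 34 of 44 members, and control library 3 lies farthest right among controls for 40 of 44.

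**Figure D5:**
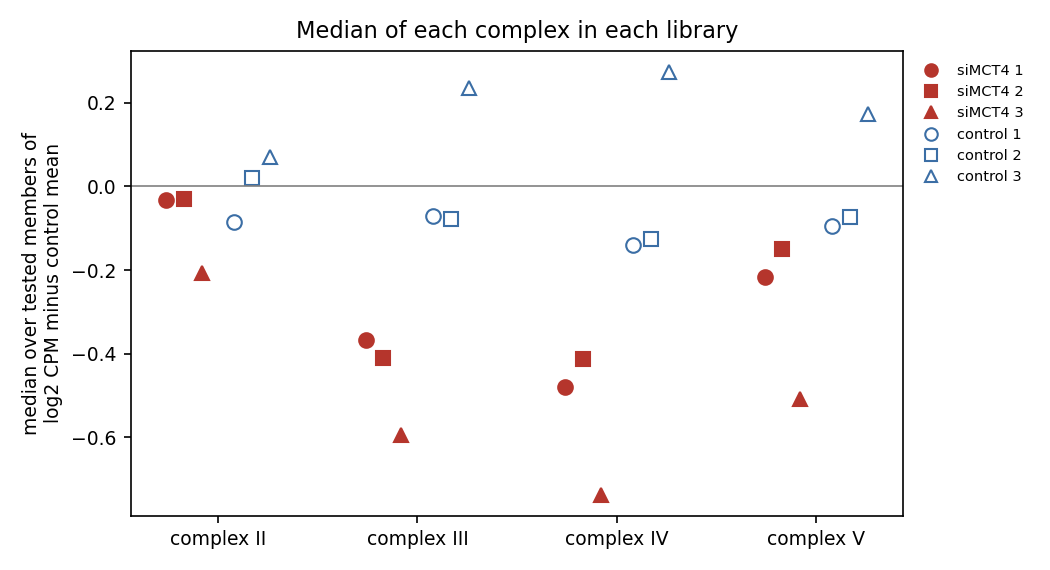
Median log2 ratio to the control mean over the tested members of each complex, with siMCT4 libraries 1 to 3 (filled) left of control libraries 1 to 3 (open). Complex II reaches -0.21 in siMCT4 library 3 alone and lies near 0 in libraries 1 and 2, while complex IV lies at -0.48, -0.41 and -0.74 in siMCT4 libraries 1, 2 and 3.

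Base composition and transcript length were set beside the changes. Genes with a median transcript length under 800 bases, 1786 of them above a log2 CPM of 2, had median log2 ratios of -0.10, -0.09 and -0.15 in siMCT4 libraries 1, 2 and 3, smaller shifts than the members' own. Across the 44 members, which share the 6 libraries, the log2 change had a Pearson r of -0.44 with GC content and 0.09 with transcript length, given as a description. With an offset for GC content and length in each library 21 members fell, against 19.3% of all tested genes, and 0 rose, CYC1 and ATP5ME lost their calls, and ATP5F1A, ATP5F1C, COX7B and SDHA gained one. The calls that held in all 18 alternatives were those of UQCRB, UQCRC2, UQCR11, CYCS, COX5A, COX5B, COX7A2L, ATP5F1B and ATP5MC2.

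Of the 6 subunits of complexes III, IV and V that the mitochondrial genome encodes, 5 fell and 0 rose, beside the same 20.8% and 20.6% of all tested genes. MT-CO3, a core subunit of complex IV, averaged 1229 ± 51.4 CPM in siMCT4 and 2008 ± 25.1 CPM in control libraries (SD, n = 3; log2 change -0.71, adjusted p = 1.74e-05). MT-ATP6 and MT-ATP8 of complex V fell by 0.70 and 0.61 on the log2 scale, and MT-CO1 and MT-CYB by 0.54 and 0.22. MT-CO2 was not called (-0.22, adjusted p = 0.0527). It passed as lower without siMCT4 replicate 2 (adjusted p = 0.0428), without siMCT4 replicate 3 (adjusted p = 0.0392) and without both libraries numbered 3 (adjusted p = 0.0245). It also passed with DESeq2 (adjusted p = 0.0355) and with the GC and length offset, without or with the block (adjusted p = 0.0126 and 0.0347). It did not pass on FPKM or TPM, with RLE or upper-quartile scaling, with no filter or with the block alone. Nor did it pass without any 1 control or without siMCT4 replicate 1. Over all its alternatives the adjusted p ran from 0.00103 to 0.895. The median of the 6 was -0.58.

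Assembly factors, the proteins that build these complexes and are not part of them, were called at or below the rate of all genes in the edgeR fit of all 6 libraries. Of 43 tested for complexes II to V 4 fell, 8 rose and 31 did not pass, beside 20.8% lower and 20.6% higher over all tested genes, with a median log2 change of -0.01, which turned to 0.01 with RLE scaling, 0.08 on FPKM and 0.18 on TPM. COX19 and COA8, which help complete complex IV, fell by 0.62 and 0.78 on the log2 scale, and SCO2, which delivers copper to it, fell by 1.85. SCO2 was scarce, averaging 0.391 ± 0.331 CPM in siMCT4 and 1.43 ± 0.145 CPM in control libraries (SD, n = 3). SCO2 is 66.2% GC, and with an offset for GC content and length it stood at -1.13 and was not called (adjusted p = 0.0769). The SCO2 call was also lost with no filter (adjusted p = 0.0853) and with the replicate block (adjusted p = 0.0513). It was lost too without any 1 of the controls or siMCT4 replicate 2 (adjusted p from 0.0925 to 0.119 there, and from 0.00271 to 0.119 over all alternatives). COX10, which makes haem for complex IV, rose by 0.43 (SE 0.07, adjusted p = 0.00259). SDHAF2 and SDHAF3, which help mature SDHA and SDHB, rose by 0.69 and 0.83 (adjusted p = 0.00473 and 0.00705), with 21.6, 22.04 and 17.2 CPM of SDHAF2 in siMCT4 and 12.9, 13.8 and 10.9 CPM in control libraries. The number of assembly factors that fell was 2 without control replicate 1 or without control replicate 3, beside 15.2% and 15.3% of all tested genes. The number that rose was 7 and 9 in these fits, beside 16.6% and 16.3% of all tested genes. With both libraries numbered 3 left out 12 rose, beside 21.9%.

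Among 12 regulators of respiratory genes 2 rose, 2 fell and 8 did not pass, near the 20.6% higher and 20.8% lower of all tested genes. PPARGC1B, a coactivator of mitochondrial genes, averaged 161 ± 4.69 CPM in siMCT4 and 65.03 ± 2.18 CPM in control libraries (log2 change 1.31, SE 0.05, adjusted p = 2.25e-06). TFB2M, a factor that starts transcription of the mitochondrial genome, rose by 0.35 (adjusted p = 0.00579). TFAM, which packs and transcribes that genome, fell by 0.60 (adjusted p = 0.00125), and GABPB1, the beta subunit of the ETS factor GABP, by 0.41 (adjusted p = 0.00817). GABPA, NRF1 and YY1, whose motifs were searched above, had log2 changes of 0.01, -0.23 and 0.01 and were not called. The GABPB1 call was lost without control replicate 1 (adjusted p = 0.0501) and on TPM (log2 change -0.19, adjusted p = 0.118), with 0.000781 to 0.118 over its alternatives. The TFB2M call was lost with the GC and length offset and the replicate block together (log2 change 0.24, adjusted p = 0.0616). Without siMCT4 replicate 3 the number of regulators that fell was 5 of 12, against 23.1% of all tested genes in that fit. Without control replicate 1 it was 1, against 15.2%.

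Of 19 carriers, pores and import or shaping proteins of the mitochondrial membranes 11 fell, 3 rose and 5 did not pass, beside 20.8% lower and 20.6% higher over all tested genes, with a median log2 change of -0.38. TOMM20, an import receptor, averaged 157 ± 3.74 CPM in siMCT4 and 297 ± 9.25 CPM in control libraries (log2 change -0.92, adjusted p = 6.60e-06). SLC25A6, an ADP/ATP carrier that exports the product of complex V, averaged 65.1 ± 15.4 CPM in siMCT4 and 262 ± 13.97 CPM in control libraries (log2 change -2.01, adjusted p = 6.43e-05). VDAC1, the outer membrane pore, fell by 0.51. MFN1, which fuses outer membranes, rose by 0.78, the import channel gene TIMM23 by 0.57 and the import receptor TOMM70 by 0.15. TOMM70 was not called without control replicate 1, control replicate 2 or siMCT4 replicate 2 (adjusted p = 0.0777, 0.0813 and 0.0553). Nor was it called with the replicate block (adjusted p = 0.0749) or the GC and length offset (log2 change 0.085, adjusted p = 0.213). With offset and block together its adjusted p was 0.285, and it ran from 0.000686 to 0.285 over its alternatives.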

How the data were processed

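Per the labels' protocols, poly(A) RNA of THP-1 macrophages was made into 6 dUTP strand-marked libraries and sequenced as paired ends. Trimming and alignment tools named in the submitters' processing notes are cutadapt 1.9 and HISAT2 2.2.1, with the build GRCh38. How reads were counted, against which annotation and on which strand is not given in the sources used here. The deposited table lists 35009 genes and gives each library a column of counts and another of FPKM, per the file headers, and 0 sample columns went unused. The deposited counts are whole numbers with no scaling. The authors' FPKM followed from these counts with 1 length for each gene and 1 factor for each library. Among counts between 2 and 41, 58.7% to 60.9% were even. Some fragments may thus have given 2 counts, but not all, since every count would then be even. Depth limits precision for members of few counts, and the interval of a count covers counting error only.

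Counts were tested with edgeR 4.0.16 in R 4.3.3: TMM scaling, filterByExpr (min.count 10, min.total.count 15), a quasi-likelihood fit with group as the sole factor over all 6 libraries, two-sided tests, and Benjamini-Hochberg adjustment over 19944 genes. SE was obtained by dividing a gene's log2 change by the root of its F statistic. Log2 ratios per library are log2 CPM with a prior count of 2 minus the control mean. Alternatives were RLE and upper-quartile scaling, DESeq2 1.42.0, no filter, limma 3.58.1 on log2(FPKM + 1), log2(FPKM + 0.1) and log2(TPM + 1), a replicate block, offsets for GC content and length (GENCODE transcripts), both together, and each library left out. Setting siMCT4 library 3 alone against the controls, and leaving out both libraries numbered 3, were chosen after seeing the data. The fits were tested on simulated counts. TPM was FPKM rescaled to sum to 1000000. Promoter sequences came from RefSeq (GRCh38.p14).

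The members and the lists of assembly factors, regulators, carriers and markers were chosen with earlier results of these data known. Lymphocyte markers are not reported here. Values in every library are given for up to 3 called members of each complex with the largest changes, the member of highest FPKM, members of the paralogue families COX4I, COX6A, COX6B, COX7A and ATP5MC, ATP5IF1 and others that a sentence turns on. Other lists have up to 3 called genes named in each direction. The remaining mitochondrially encoded genes, the marker genes and the genes NRF1, GABPA and YY1 were named after their values were seen.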

Additional observations from a re-analysis of the deposited data

How the results depend on the processing

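No member was called higher in any of the 18 alternatives. The count of members called lower was 14 to 19 with 1 library left out, 16 to 26 under the other settings except TPM (11), and 30 with siMCT4 library 3 alone against the controls, a fit that assumes the lone library to vary like the others. TPM moved the medians of complexes II, III, IV and V to 0.11, -0.20, -0.37 and -0.11, where the median of all tested genes was 0.12. Complex II stood at 0.0186 on log2(FPKM + 1) and at 0.0187 on log2(FPKM + 0.1). Without both libraries numbered 3 the medians of complexes IV and V were -0.37 and -0.10, and with siMCT4 library 3 alone that of complex III was -0.59. With 1 library left out the medians ran from -0.12 to -0.01 in complex II, -0.49 to -0.32 in III, -0.64 to -0.44 in IV and -0.35 to -0.16 in V. The cause of these shifts was not tested.

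Among called members CYC1 alone changed sign, to 0.0523 with the GC and length offset and to 0.0450 with the offset and the replicate block together. The other sign changes were of members not called. On TPM the log2 changes were 0.0811 for ATP5F1C, 0.0539 for ATP5MC1, 0.0699 for ATP5MF, 0.0302 for ATP5MK, 0.0538 for ATP5PF, 0.0665 for SDHA, 0.0710 for SDHB, 0.15 for SDHC, 0.17 for SDHD, 0.00889 for UQCR10 and 0.0355 for UQCRFS1. On log2(FPKM + 1) SDHC and SDHD stood at 0.0571 and 0.0728, and on log2(FPKM + 0.1) at 0.0581 and 0.0759. With the GC and length offset ATP5MC1, ATP5MF and SDHC stood at 0.0206, 0.11 and 0.0434, and at 0.0191, 0.11 and 0.0432 with the block added. Without both libraries numbered 3 the values were 0.0486 for ATP5MC1, 0.00709 for ATP5MC3, 0.18 for ATP5MF, 0.0887 for ATP5MK, 0.0277 for COX7A2, 0.0497 for SDHC, 0.0764 for SDHD and 0.0719 for UQCR10. With 1 library left out ATP5MC1 ran from -0.21 to 0.0039, ATP5MF from -0.24 to 0.0456, ATP5MK from -0.27 to 0.0042, SDHC from -0.0847 to 0.0490 and SDHD from -0.0942 to 0.0464.

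The labels give both groups replicate numbers 1 to 3 and do not say whether same-numbered libraries were handled together. Deviations of same-numbered libraries from their group means had r = -0.10, 0.07 and -0.15 over 11075 genes. No siMCT4 library correlated best with the control of its own number. With 3 libraries in each group such deviations constrain each other, so these values cannot settle whether the numbers mark a shared batch. With the replicate block 16 members were called lower and 0 higher, against 18.0% and 16.8% of all tested genes. On log2(FPKM + 1), log2(FPKM + 0.1) and log2(TPM + 1), 3 of the 6 mitochondrially encoded subunits were called lower, against 5 with edgeR.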

Other observations

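Genes that share sequence or position with members did not all move as the members did. VPS13B, whose locus overlaps COX6C on the opposite strand, averaged 111 ± 5.31 CPM in siMCT4 and 98.7 ± 3.58 CPM in control libraries (SD, n = 3; log2 change 0.17, adjusted p = 0.0358 in edgeR), while COX6C fell by 0.75 on the log2 scale. EMC8, which overlaps COX4I1, stood at -0.23 (adjusted p = 0.304) and was not called. The SDHA pseudogenes SDHAP1, SDHAP3 and SDHAP4 had log2 changes of 0.13, 0.20 and 0.16, and UQCRHL, a copy of UQCRH, had -0.18. None of these 4 copies was called, with adjusted p from 0.185 to 0.498. These genes were chosen after their overlap with members was seen. Other members also overlap counted genes on the opposite strand. ATP5PO overlaps LINC00649, with 41599 counts over the 6 libraries against 25814 for ATP5PO, and ATP5PF overlaps GABPA, with 18634 against 10936. ATP5MF overlaps CPSF4, ATP5PD overlaps KCTD2 and the called ATP5PB overlaps WDR77. As the counting strand is not given, the counts of these members carry the same limit.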
